A study of Mus musculus with 9 samples.

Results

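Histones are the proteins that DNA is wrapped around, and the mouse genome encodes them in a pair of gene classes. Replication-dependent histone genes lie in clusters, carry symbols that begin with Hist and a cluster number, and supply the bulk of core and linker histone while DNA is copied in S phase. Their mRNAs usually end in a short hairpin, the stem-loop, in place of a poly(A) tail; the stem-loop binding protein and the U7 small nuclear ribonucleoprotein direct that end, and some of the genes can also make polyadenylated mRNAs in differentiated cells. Most variant histone genes sit apart from the clusters, have polyadenylated mRNAs and are expressed throughout the cell cycle. Usp22, the ubiquitin protease of the SAGA coactivator, removes ubiquitin from histone H2B, and Usp21 is a ubiquitin protease known to act on histone H2A.

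The genes described here were the rows of the deposited count table with a symbol beginning Hist1h to Hist4h, plus the variant genes H2afx, H2afz, H2afv, H2afy, H2afj, H3f3a, H3f3b, H1f0 and H1fx. Rows with at least 10 counts summed over the libraries were kept. This gave 47 of the 54232 rows of the table, 38 of them replication-dependent and 9 variant. All 9 variant genes and 38 of the 67 replication-dependent rows reached 10 counts. Of the 29 rows below the minimum, 17 were at 0 in every library and 12 had 2 to 8 counts. Hist1h4k, an H4 gene, entered with 10 counts, and Hist1h2ak, Hist1h4j and Hist2h2ab entered with 11 each. Hist1h2ab stayed out with 8 counts, and Hist1h3h and Hist1h4f with 7 each.

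RNA-seq was done on regulatory T cells (Treg) sorted from mouse spleen by a YFP reporter for Foxp3, the transcription factor that defines them. There were 3 groups with 3 libraries each: WT, Usp21 KO (genotype label "Usp21 Treg KO") and a double knockout of Usp22 and Usp21 (genotype label "Usp21/Usp22 Treg KO", called dKO here). The design text describes the cells as naive natural Treg, and no treatment is given. Strain, age, sex, the Cre driver and the deleted exons are not given in the sources used here, and there was no group lacking Usp22 alone. Titles number the libraries as biological samples 1 to 3 of each group. Library totals ran from 18067377 to 40334577 counts, and 14994 genes passed the filter on low counts. Usp21 averaged 63.3 ± 2.72, 25.4 ± 2.49 and 27.9 ± 1.59 CPM (counts scaled to a common library size; SD, n = 3) in WT, Usp21 KO and dKO. Usp22 averaged 71.1 ± 1.74, 73.8 ± 8.64 and 25.4 ± 3.58 CPM in the same order, so both target genes were lower where the labels say. Foxp3 averaged 660 ± 34.2 and 333 ± 36.5 CPM in WT and dKO, and all 7 markers of a Treg list were detected in each group.

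The stem-loop was found almost only in the replication-dependent class. A perfect 6-base stem around a 4-base loop was found in the annotated transcripts of 27 of the 38 replication-dependent genes and in 1 of the 9 variants, H2afx. The forms below show how far it is shared; they are written as DNA from GENCODE M21 transcripts (GRCm38), and capitals mark the loop.

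Hist1h1c and 12 others: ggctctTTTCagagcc

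Hist1h2bk, Hist1h2bb, Hist1h3c, Hist1h3e and Hist1h3f: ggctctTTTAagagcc

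Hist1h4c, Hist1h4d, Hist1h4h and Hist4h4: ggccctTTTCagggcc

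Hist1h4i and Hist2h4: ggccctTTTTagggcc

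Hist1h4b and Hist1h4j: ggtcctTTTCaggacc

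H2afx: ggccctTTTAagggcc

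Hist2h2ac: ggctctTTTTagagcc

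The most common form was shared by linker, H2A, H2B and H3 genes, namely Hist1h1c, Hist1h1d, Hist1h1e, Hist1h2ac, Hist1h2ae, Hist1h2be, Hist1h2bg, Hist1h2bj, Hist1h3a, Hist1h3d, Hist2h3c2, Hist3h2a and Hist3h2ba. All of the H4 genes with a loop used a ggccct or ggtcct stem, and the H2afx stem was of the ggccct kind. The 3 tested replication-dependent genes without a loop by this rule were Hist1h1b, Hist1h2bc and Hist2h2be. A missing match says only that these letters are not in the annotated transcript. The transcript annotated for H2afx runs 822 bases past the loop, and that of Hist1h1c runs 840 bases past it. Annotated transcripts ran over 100 bases past the loop for 13 of the 19 replication-dependent genes with enough counts to be tested. The same was true of 6 of the 19 members that were not tested, of 0 of the 12 rows with 2 to 8 counts and of 2 of the 17 rows at 0.

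RefSeq promoter windows (GRCm38.p6, 250 bases before to 50 after the start) were matched for 32 of the 38 replication-dependent genes, in 33 windows, and for 8 of the 9 variants. The letters CCAAT, on either strand, stood in 81.8% of the replication-dependent windows, in 62.5% of the variant windows and in 37.4% of all 32851 windows. TATAA stood in 78.8%, 12.5% and 24.9% of them, and TTTGCAT, the core of the octamer known from H2B promoters, in 27.3%, 12.5% and 4.63%. AAACACA, known as the H1 box, was searched for after these promoters had been read. It stood in 12.1% of the replication-dependent windows, all 4 of them linker histone genes, in 12.5% of variant windows and in 7.18% of all windows. The 150 bases before the start of those 4 linker genes are shown because all 4 had dKO libraries above every WT library, as described below. Capitals mark any of the 4 motifs on either strand, and adjacent capitals can belong to overlapping matches.

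Hist1h1b, chr13:21780626-21780775, minus strand: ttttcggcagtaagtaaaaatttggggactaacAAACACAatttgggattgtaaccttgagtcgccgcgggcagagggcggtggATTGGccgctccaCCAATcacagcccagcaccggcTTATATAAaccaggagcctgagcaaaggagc

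Hist1h1c, chr13:23738657-23738806, plus strand: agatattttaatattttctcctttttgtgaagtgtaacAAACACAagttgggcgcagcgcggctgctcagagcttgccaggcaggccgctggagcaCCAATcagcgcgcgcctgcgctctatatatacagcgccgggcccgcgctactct

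Hist1h1d, chr13:23554882-23555031, plus strand: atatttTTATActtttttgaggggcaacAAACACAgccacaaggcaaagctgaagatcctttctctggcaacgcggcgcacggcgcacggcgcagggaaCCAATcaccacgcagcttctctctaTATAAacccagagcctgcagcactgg

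Hist1h1e, chr13:23622559-23622708, minus strand: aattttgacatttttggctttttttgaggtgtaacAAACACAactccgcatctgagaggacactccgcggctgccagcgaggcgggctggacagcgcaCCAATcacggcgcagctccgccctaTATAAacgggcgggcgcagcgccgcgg

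Each of the 4 stretches holds AAACACA upstream of CCAAT. The fifth linker gene among the members, Hist1h1a, had a promoter window without AAACACA, and it had 45 counts in all. Hist1h1t, a linker gene with no counts and so not a member, also held AAACACA upstream of CCAAT. A link between this motif and the levels was not tested.

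Counts of the replication-dependent genes went with how much of each transcript is unique. Near-identical coding sequences mean that a read can fit several cluster genes, and how such reads were counted is not given in the sources used here. The share of 50-base stretches found in no other gene had a median of 7.87% in the 17 rows at 0, of 25.0% in the 12 rows with 2 to 8 counts and of 45.9% in the 19 untested members. It was 80.4% in the 19 tested members, with a range of 40.6% to 100%, and 93.0% in the 9 variants. Hist2h2aa1, Hist2h2aa2, Hist2h2bb, Hist2h3b and Hist2h3c1 had no unique stretch at all and no counts. Hist1h1t, the testis linker histone, was unique throughout and also had no counts, which allows up to 0.0744 to 0.166 CPM in a library (3 counts of its total, counting error only). The part of shared reads in the levels of replication-dependent genes was not tested.

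**Figure D1:**
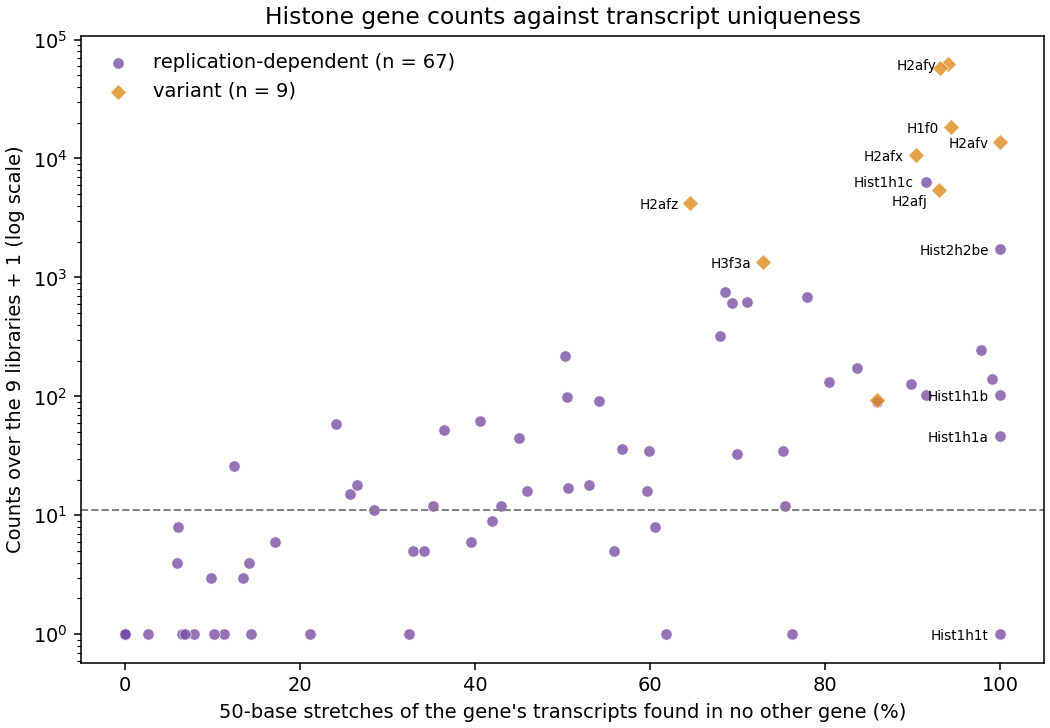
Counts over the 9 libraries plus 1 (log axis) against the percentage of 50-base stretches of a gene's transcripts that occur in no other gene, for the 67 replication-dependent rows (circles) and the 9 variant genes (diamonds). The dashed line marks the minimum of 10 counts; the 17 rows at 0 lie on the bottom edge, most of them at low uniqueness, while the variants lie at the upper right.

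Variant genes made up most of the histone signal as counted. RNA selection and the counting of shared reads are not given in the sources used here. Both can lower replication-dependent counts, so the shares and levels below describe counts and not transcript abundance in the cells. Summed over the 9 variants, the level was 670.3, 718 and 668 CPM in the WT libraries (replicates 1, 2 and 3), 659, 714 and 627 CPM in Usp21 KO and 734, 773 and 705 CPM in dKO. Summed over the 38 replication-dependent genes it was 52.1, 49.5 and 44.3 CPM in WT, 46.9, 56.2 and 46.2 CPM in Usp21 KO and 64.3, 66.3 and 54.8 CPM in dKO. Every dKO library lay above every WT library in the replication-dependent sum, but dKO replicate 3 lay below Usp21 KO replicate 2. The variant sums of WT and dKO overlapped. Of all histone CPM, replication-dependent genes contributed 6.62 ± 0.518%, 6.93 ± 0.335% and 7.72 ± 0.454% in WT, Usp21 KO and dKO (SD, n = 3). The highest WT library and the lowest dKO library were both at 7.21%. One linker gene, Hist1h1c, supplied 48.2%, 48.7% and 48.2% of the replication-dependent CPM in WT, Usp21 KO and dKO.

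Per kilobase of exon, H3f3b was the highest histone gene at 77.0 CPM per kb over the 9 libraries. It was followed by H2afy at 36.5, H1f0 at 36.3, H2afv at 34.1 and H2afx at 31.5 CPM per kb, and these 4 lay close together. Hist1h1c, at 16.6 CPM per kb, stood above H2afj at 12.1 and H2afz at 9.54 CPM per kb and was the only replication-dependent gene among the upper ranks. Hist3h2ba, an H2B gene, came next in its class at 4.56 CPM per kb, then Hist1h4i at 3.45 and Hist2h2be at 2.65 CPM per kb. H3f3a, which encodes the same replacement H3 protein as H3f3b, was at only 1.53 CPM per kb, with 72.9% of its stretches unique.

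**Figure D2:**
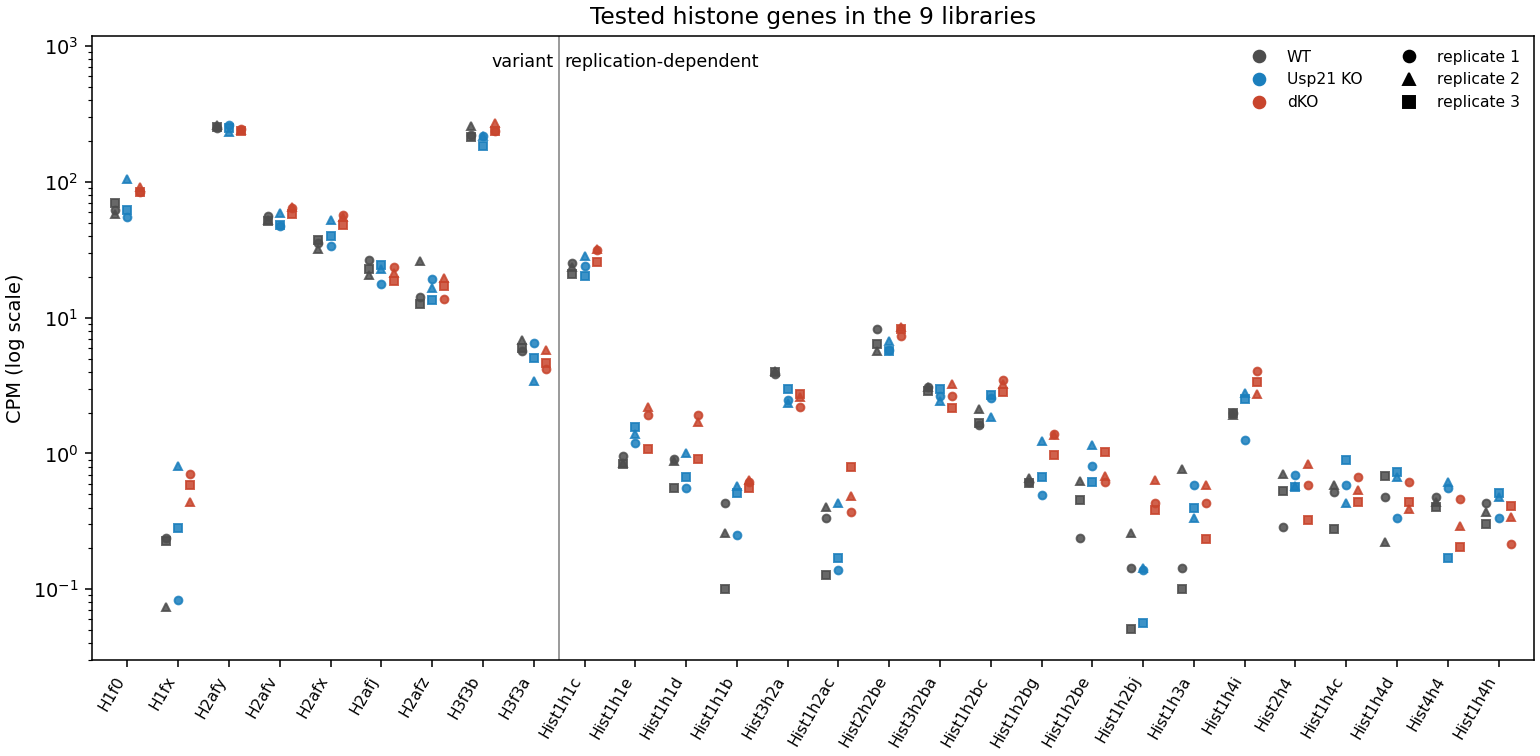
Level of each of the 28 tested histone genes in every library, in CPM on a log axis, with 9 variants to the left of the line and 19 replication-dependent genes to the right; colour gives the group and shape the replicate. H3f3b and H2afy stand at 184 CPM or more in every library, and all tested replication-dependent genes other than Hist1h1c lie under 10 CPM.

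One histone gene, the variant H2afx, passed the test in any comparison. H2afx (ENSMUSG00000049932, chr9:44334694-44336077, plus strand, GRCm38) encodes the H2A whose tail is phosphorylated around DNA breaks. It was also the only variant with a stem-loop, a trait of the replication-dependent class, so its rise is not a clear result for variants. Its level was 35.4, 32.1 and 37.5 CPM in WT, 33.7, 52.5 and 39.8 CPM in Usp21 KO and 57.4, 54.9 and 48.6 CPM in dKO. All dKO libraries were above all WT libraries, and Usp21 KO replicate 2 lay inside the dKO range while the other Usp21 KO libraries lay near WT. H2afx rose in dKO against WT by 0.61 ± 0.15 on the log2 scale, 1.53-fold (edgeR quasi-likelihood test, Benjamini-Hochberg adjusted over 14994 genes, adjusted p = 0.0386). The estimates in Usp21 KO against WT and in dKO against Usp21 KO were 0.26 ± 0.15 and 0.35 ± 0.15 (adjusted p = 0.554 and 0.177). With the replicate number as a block, an alternative fit, the dKO estimate was again 0.61, with an edgeR adjusted p of 0.0756. Whether same-numbered WT and dKO libraries are paired is not known. The call was lost when any 1 of the 6 WT and dKO libraries was left out, with estimates from 0.56 to 0.68 and adjusted p from 0.0835 to 0.136. Over all genes, the 866 calls became 193 to 379 in those runs. With DESeq2 the adjusted p of H2afx was 0.00195. A gene on the opposite strand, Gm44335, overlaps an exon of H2afx; the counting's use of strand is not given, so reads of the pair cannot be told apart.

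The comparison of dKO with WT asks what loss of both proteases did. Beside H2afx, 0 of the other 8 variants passed, against 5.78% of all 14994 genes (3.01% higher and 2.77% lower). That balance depended on the scaling: 451 genes were higher and 415 lower, and 807 and 236 when libraries were scaled by their totals. The variants' median log2 fold change was 0.11, beside -0.01 over all genes tested. H2afx, H1fx and H2afv had an unadjusted p under 0.05, all higher, against 11.3% of all genes. Libraries did not overlap for 4 variants on the higher side (H1f0, H1fx, H2afv and H2afx) and for H2afy on the lower side, against 17.6% and 18.4% of all genes.

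Among the linker variants, H1f0 (chr15:79028450-79030504), known from differentiated cells that have stopped dividing, was at 62.5, 57.8 and 69.8 CPM in WT, 55.0, 105 and 61.8 CPM in Usp21 KO and 84.0, 91.7 and 84.2 CPM in dKO. Its highest library was Usp21 KO replicate 2, above every dKO library. The dKO estimate against WT was 0.45 ± 0.22 (edgeR adjusted p = 0.27). H1fx, the other linker variant, ran from 0.0738 to 0.238 CPM in WT, from 0.0831 to 0.813 CPM in Usp21 KO and from 0.440 to 0.707 CPM in dKO. It had 93 counts in all, and its estimate was 1.67 ± 0.73 (adjusted p = 0.205).

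H2afv and H2afz both encode H2A.Z, the variant found at promoters and enhancers, and only H2afv had every dKO library above WT. H2afv (chr11:6427229-6444443) was at 55.8, 52.1 and 51.6 CPM in WT, 47.0, 58.9 and 48.5 CPM in Usp21 KO and 64.6, 65.1 and 57.7 CPM in dKO. The dKO libraries stood above WT, with an estimate of 0.23 ± 0.09 against WT (adjusted p = 0.178) and of 0.28 ± 0.09 against Usp21 KO (adjusted p = 0.106). H2afz was at 14.1, 26.0 and 12.6 CPM in WT, 19.3, 16.5 and 13.4 CPM in Usp21 KO and 13.6, 19.7 and 17.2 CPM in dKO. Its groups overlapped widely, and the dKO estimate was -0.06 ± 0.27 (edgeR adjusted p = 0.922). Only 64.6% of the 50-base stretches of H2afz were unique, the lowest share of the variants, beside 100% for H2afv, so its counts are less certain.

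The most abundant variants were close to level. H2afy, which encodes macroH2A with its large non-histone domain, was at 249, 264 and 255 CPM in WT, 262, 235 and 249 CPM in Usp21 KO and 247, 241 and 236 CPM in dKO. Its dKO libraries lay just under WT, by -0.08 ± 0.06 on the log2 scale (adjusted p = 0.465). H3f3b averaged 231 ± 24.4, 207 ± 19.3 and 249 ± 20.2 CPM in WT, Usp21 KO and dKO. The dKO estimate for H3f3b was 0.11 ± 0.10 against WT (adjusted p = 0.547) and 0.27 ± 0.10 against Usp21 KO (adjusted p = 0.133), where the libraries did not overlap. H3f3a and H2afj, the latter known in human cells for accumulating in senescence, had dKO estimates of -0.35 ± 0.24 and -0.14 ± 0.15 against WT (adjusted p = 0.424 and 0.63), with overlapping libraries.

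Of the 19 tested replication-dependent genes, 0 passed the edgeR test in dKO against WT, where 5.78% of all genes passed. At an unadjusted p under 0.05, 8 were higher and 1 was lower, against 11.3% and 11.1% of all genes; limma voom called 0 and DESeq2 called 1, Hist1h2bc. Their median log2 fold change was 0.35, with 15 of 19 above 0, beside a median of -0.01 over all genes. The dKO and WT libraries did not overlap for 8 genes on the higher side and for 1 on the lower side, against 17.6% and 18.4% of all genes. The 8 higher genes were Hist1h1b, Hist1h1c, Hist1h1d, Hist1h1e, Hist1h2bc, Hist1h2bg, Hist1h2bj and Hist1h4i, the same genes as at the unadjusted threshold.

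These 8 genes all lie in the large cluster on chromosome 13, which holds 14 of the 19 tested genes. In a split made after the values were seen, 13 of those 14 had an estimate above 0, with a median of 0.81. The 5 genes on chromosomes 3, 6 and 11 had a median of -0.18, with 2 of 5 above 0. The difference between the clusters was not tested.

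Linker histones, which bind DNA between nucleosomes, were higher in dKO for all 4 tested genes, with libraries that did not overlap WT. Hist1h1c (chr13:23738808-23740367) was at 25.5, 23.8 and 21.1 CPM in WT, 23.8, 28.7 and 20.5 CPM in Usp21 KO and 31.5, 32.2 and 25.7 CPM in dKO. The lowest dKO library was only just above the highest WT library, and the estimate was 0.35 ± 0.14 (edgeR adjusted p = 0.174). Hist1h1e was at 0.953, 0.848 and 0.834 CPM in WT, 1.19, 1.39 and 1.58 CPM in Usp21 KO and 1.94, 2.20 and 1.09 CPM in dKO. Both knockout groups lay above WT for this gene, with estimates of 0.65 ± 0.32 in Usp21 KO and 0.98 ± 0.32 in dKO (adjusted p = 0.511 and 0.106). Hist1h1e shares exon sequence with Hist1h2be on the same strand, so counts of this pair are uncertain. Hist1h1d was at 0.905, 0.885 and 0.556 CPM in WT and at 1.90, 1.71 and 0.911 CPM in dKO, where the groups all but touched, with an estimate of 0.96 ± 0.39 (adjusted p = 0.184). Hist1h1b was at 0.429, 0.258 and 0.101 CPM in WT and at 0.615, 0.635 and 0.559 CPM in dKO, with an estimate of 1.27 ± 0.54 (adjusted p = 0.197). It had only 102 counts in all, with 9, 7 and 4 in the WT libraries. Summed over the 5 linker members, the level averaged 25.5, 27.1 and 33.9 CPM in WT, Usp21 KO and dKO, a log2 ratio of 0.41 in dKO against WT.

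H2A was the class in which the sum was lower in the knockouts, and a single gene carried it. The summed level of the 6 H2A members averaged 4.63, 3.22 and 3.57 CPM in WT, Usp21 KO and dKO. Hist3h2a (chr11:58954685-58956830, plus strand) supplied most of it, at 3.86, 4.06 and 3.97 CPM in WT, 2.47, 2.34 and 2.99 CPM in Usp21 KO and 2.21, 2.59 and 2.73 CPM in dKO. All 6 knockout libraries were below all 3 WT libraries, whose SD was 0.0996 CPM. The estimate was -0.61 ± 0.20 in Usp21 KO against WT (edgeR adjusted p = 0.338) and -0.66 ± 0.20 in dKO against WT (adjusted p = 0.0854). Both of these comparisons use the same WT libraries. Between the knockouts the estimate was -0.05 ± 0.20 (adjusted p = 0.92). The other tested H2A gene, Hist1h2ac, averaged 0.289 ± 0.145, 0.246 ± 0.160 and 0.550 ± 0.219 CPM, with a dKO estimate of 0.98 ± 0.58 (adjusted p = 0.352). Hist3h2a overlaps exons of Trim17 on its own strand and of Gm44313 on the other, so its counts are uncertain in that part.

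Of the 6 tested H2B genes, 5 had an estimate above 0 in dKO against WT. Hist1h2bc (chr13:23684199-23692908, plus strand), which lies next to Hist1h2ac, was at 1.62, 2.14 and 1.67 CPM in WT, 2.55, 1.86 and 2.71 CPM in Usp21 KO and 3.47, 3.27 and 2.82 CPM in dKO. The dKO libraries stood above all others, and the estimate against WT was 0.82 ± 0.24 (edgeR adjusted p = 0.0753; DESeq2 adjusted p = 0.035). Hist1h2bj, with only 61 counts, was at 0.143, 0.258 and 0.051 CPM in WT, 0.138, 0.143 and 0.056 CPM in Usp21 KO and 0.430, 0.635 and 0.382 CPM in dKO. Its dKO libraries also stood above all others, with estimates of 1.70 ± 0.60 against WT and 1.97 ± 0.63 against Usp21 KO (adjusted p = 0.127 and 0.0943). Hist1h2bg had an estimate of 0.97 ± 0.38 against WT (adjusted p = 0.171) and libraries that did not overlap. Hist1h2be, also on chromosome 13, had one of 0.80 ± 0.43 (adjusted p = 0.309) with overlapping libraries. Hist2h2be, the H2B gene with the most CPM before scaling by length, was at 8.29, 5.64 and 6.42 CPM in WT, 5.79, 6.69 and 5.69 CPM in Usp21 KO and 7.31, 8.50 and 8.23 CPM in dKO. It overlapped between dKO and WT, where the estimate was 0.24 ± 0.17 (adjusted p = 0.439). Hist3h2ba, the neighbour of Hist3h2a, was at -0.18 ± 0.22 in dKO against WT (adjusted p = 0.674) and overlapping libraries. The H2B sum averaged 13.04, 13.2 and 16.8 CPM in WT, Usp21 KO and dKO, a log2 ratio of 0.36 in dKO against WT.

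Taken singly, H3 and H4 genes were near the limit of detection apart from Hist1h4i. Hist1h4i (chr13:22040636-22041362, minus strand) was at 2.00, 1.92 and 2.00 CPM in WT, 1.25, 2.77 and 2.54 CPM in Usp21 KO and 4.03, 2.74 and 3.35 CPM in dKO. The dKO libraries lay above WT and partly within the Usp21 KO range, and the estimate was 0.78 ± 0.30 against WT (edgeR adjusted p = 0.17). The other 5 tested H4 genes were under 1 CPM in every library, and their dKO estimates ran from -0.45 ± 0.51 in Hist4h4 to 0.28 ± 0.44 in Hist1h4c, with Hist2h4 at 0.14 ± 0.46. Hist1h3a, the only H3 gene tested, averaged 0.340 ± 0.377, 0.437 ± 0.129 and 0.417 ± 0.176 CPM in WT, Usp21 KO and dKO, with an estimate of 0.28 ± 0.72 (adjusted p = 0.856). The WT libraries alone ran from 0.101 to 0.775 CPM. The sum over the 10 H4 members averaged 4.49, 5.16 and 6.22 CPM in WT, Usp21 KO and dKO. Its log2 ratio in dKO against WT was 0.47. WT libraries ran from 4.38 to 4.68 CPM in this sum and dKO libraries from 5.47 to 7.44 CPM. The sum over the 8 H3 members averaged 0.917, 1.08 and 1.32 CPM in the same order. Its log2 ratio in dKO against WT was 0.53, and the libraries overlapped. The 19 members with 10 to 58 counts, among them Hist2h2ac, Hist2h3c2, Hist1h3d and the pseudogene Hist3h2bb-ps, were not tested. Over all libraries Hist2h2ac, Hist2h3c2 and Hist1h3d averaged 0.168, 0.205 and 0.137 CPM, and none of the 19 exceeded 0.537 CPM in any library.

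**Figure D3:**
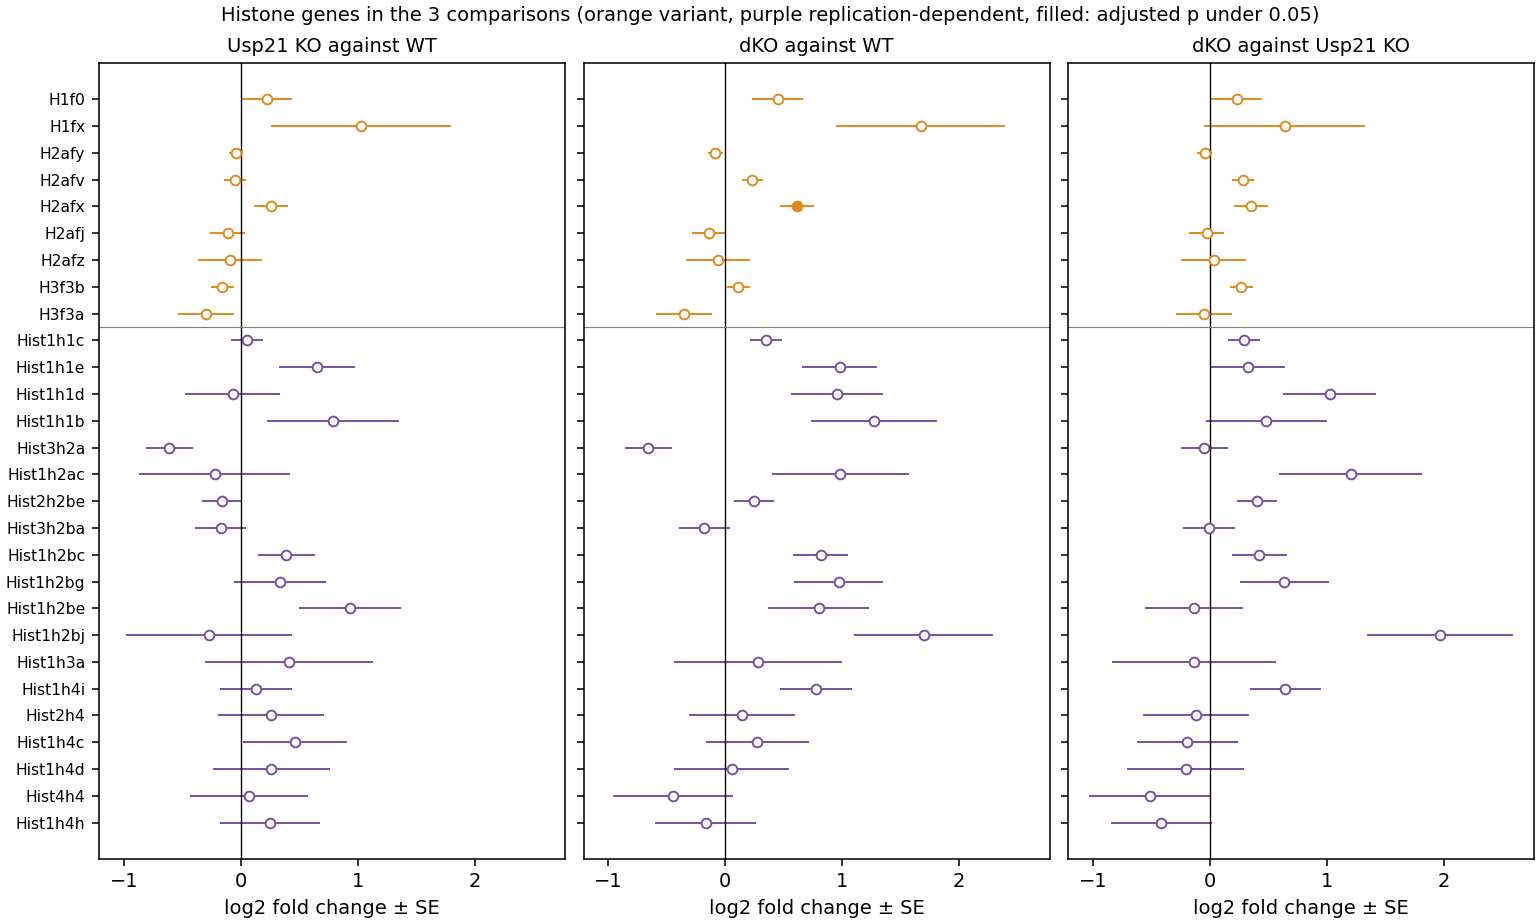
Log2 fold change with its standard error for the 28 tested histone genes in the 3 comparisons (edgeR; orange, 9 variants; purple, 19 replication-dependent genes; filled where the adjusted p was under 0.05). H2afx in dKO against WT is the only filled point; most Hist1 genes of the H1 and H2B classes lie right of 0 in dKO against WT, and Hist3h2a lies left of 0 in both comparisons with WT.

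Loss of Usp21 alone is addressed by Usp21 KO against WT. No histone gene passed there: 0 of 9 variants and 0 of 19 replication-dependent genes, where 0.0133% of all genes passed with edgeR. DESeq2 and limma voom also called 0 of them. At an unadjusted p under 0.05, 0 variants and 1 replication-dependent gene, Hist3h2a, were counted, on the lower side, where 6.3% of all genes were higher and 4.35% lower at that level. Libraries did not overlap for Hist1h1e on the higher side and Hist3h2a on the lower side, against 8.06% and 8.0% of all genes. The median log2 fold change was 0.25 over the replication-dependent genes and -0.05 over the variants, beside 0.01 over all genes. The first of these depended on 1 library: without Usp21 KO replicate 2 the replication-dependent median was -0.083.

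Adding the loss of Usp22 is addressed by dKO against Usp21 KO. With edgeR, 0 of 9 variants and 0 of 19 replication-dependent genes passed, against 4.9% of all genes (1.7% higher and 3.2% lower), and DESeq2 and limma voom called 0 of either class. The balance over all genes turned with the scaling, from 255 higher and 480 lower to 654 and 281 with library totals. At an unadjusted p under 0.05, H2afv, H2afx and H3f3b among the variants and Hist1h1d, Hist1h2bj and Hist2h2be among the replication-dependent genes were higher and none was lower, against 10.7% and 12.9% of all genes. Libraries did not overlap for H3f3b, Hist2h2be, Hist1h2bc and Hist1h2bj, all higher in dKO, against 13.1% of all genes. The median was 0.29 over the replication-dependent genes and 0.23 over the variants, beside -0.01 over all genes.

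Part of this comparison rested on Usp21 KO replicate 2. It stood at 52.5 CPM for H2afx, 105 CPM for H1f0, 58.9 CPM for H2afv and 28.7 CPM for Hist1h1c, each time the highest Usp21 KO library. Without it, 3 variants passed in dKO against Usp21 KO: H1f0 (0.58 ± 0.09, adjusted p = 0.00112), H2afv (0.40 ± 0.08, adjusted p = 0.0058) and H2afx (0.56 ± 0.11, adjusted p = 0.00384). One replication-dependent gene, Hist1h1c, also passed (0.43 ± 0.13, edgeR adjusted p = 0.0357). The calls over all genes went from 735 of 14994 to 2192 of 15541, of which 1056 were higher and 1136 lower. Leaving out the highest Usp21 KO library of a gene raises its dKO estimate by construction, so these calls add no separate support.

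Genes that act on histone mRNA went both ways. Of 21 genes for its transcription and 3′ end formation, 0 passed the edgeR test in dKO against WT, where 5.78% of all genes passed. Their median was -0.01, and 3 were higher and 1 lower at an unadjusted p under 0.05, against 11.3% and 11.1% of all genes. DESeq2 called 1 lower, Sympk, against 678 of 15940 genes. In the 6 libraries alone 2 were called higher and 1 lower, against 1232 and 1083 of 14706 genes. In dKO against Usp21 KO, edgeR called 0, against 4.9% of all genes. There 0 were higher and 3 lower at an unadjusted p under 0.05, against 10.7% and 12.9% of all genes. Libraries did not overlap for 1 higher and 6 lower genes, against 13.1% and 14.3% of all genes. DESeq2 called 3 lower there and limma voom 1, against 948 of 14265 and 498 of 14994 genes. Slbp, the stem-loop binding protein, averaged 58.2 ± 1.80, 66.3 ± 13.2 and 74.3 ± 4.83 CPM in WT, Usp21 KO and dKO, with a dKO estimate of 0.35 ± 0.12 (adjusted p = 0.114). Sympk, a scaffold of the cleavage complex, had an estimate of -0.21 ± 0.06 (adjusted p = 0.08), and Lsm1, which acts in mRNA decay, one of -0.11 ± 0.08 (adjusted p = 0.438). Hinfp, a transcription factor for H4 genes, had its smallest p in dKO against Usp21 KO, with -0.23 ± 0.06 (adjusted p = 0.0557). The estimate of Npat, the coactivator of replication-dependent histone genes, was 0.14 ± 0.08 in dKO against WT (adjusted p = 0.321).

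Histone chaperones gave a few calls. Of 26 tested genes for chaperones and variant exchange, 3 rose in dKO against WT and 0 fell, against 3.01% and 2.77% of all genes, with a median of 0.04. Chaf1a, the large subunit of the assembly factor that works at replication forks, rose by 1.43 ± 0.26 (adjusted p = 0.0156), and Asf1b, an H3-H4 chaperone, by 1.09 ± 0.21 (adjusted p = 0.0184). Anp32e, which removes H2A.Z, rose by 0.39 ± 0.08 (adjusted p = 0.018). Hat1, which acetylates new H4, rose in dKO against Usp21 KO by 0.33 ± 0.08 (adjusted p = 0.0497), the only chaperone gene to do so, against 1.7% of all genes. In Usp21 KO against WT no chaperone gene passed, against 0.0133% of all genes, and DESeq2 called 0. With edgeR, 5 were higher and 2 lower at an unadjusted p under 0.05, against 6.3% and 4.35% of all genes. Anp32e and Npm1, the nucleolar chaperone, were at 0.27 ± 0.08 and -0.32 ± 0.09 there (edgeR adjusted p = 0.302 and 0.309). With 1 library left out in turn, 0 to 3 chaperone genes rose in dKO against WT, and 0 to 3 in dKO against Usp21 KO. Over all genes, 107 of 15568 to 221 of 15112 rose in those runs of dKO against WT. In dKO against Usp21 KO, 60 of 15037 to 1056 of 15541 did. Cenpa, the centromeric H3, was the only tested gene of 10 further variant histone genes, with a dKO estimate of 0.25 ± 0.12 (adjusted p = 0.247).

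Of 26 S phase and DNA replication genes, 16 rose in dKO against WT, against 3.01% of all genes, with a median of 0.75. In dKO against Usp21 KO 4 rose, against 1.7% of all genes. E2f1, a transcription factor for S phase genes, rose by 1.52 ± 0.19 (adjusted p = 0.00304), Cdc45, a helicase subunit, by 1.15 ± 0.15 (adjusted p = 0.0036), Lig1, the replicative ligase, by 0.75 ± 0.11 (adjusted p = 0.00645), and Mcm5, another helicase subunit, by 0.66 ± 0.11 (adjusted p = 0.00796). The 4 that rose in dKO against Usp21 KO were Cdc45, Prim1, E2f1 and Rfc4, by 0.73, 0.63, 0.82 and 0.48. Of 10 mitotic and proliferation markers, 9 rose in dKO against WT, against 3.01% of all genes, with a median of 1.67. Among them were the mitotic kinases Bub1 (2.03 ± 0.31, adjusted p = 0.00645), Aurka (1.23 ± 0.19, adjusted p = 0.00636) and Cdk1 (1.74 ± 0.30, adjusted p = 0.0116), and the topoisomerase Top2a (1.70 ± 0.27, adjusted p = 0.0141). With the replicate block the counts were 11 S phase and 6 mitotic genes. Leaving out 1 library in turn left 3 to 11 S phase genes and 2 to 7 mitotic genes past the threshold in dKO against WT, with the lowest counts without WT replicate 1. Over all genes the higher calls also fell, from 451 of 14994 to between 107 of 15568 without WT replicate 1 and 221 of 15112 without WT replicate 3. In Usp21 KO against WT, 0 S phase and 0 mitotic genes passed the edgeR test, against 0.0133% of all genes. DESeq2 called 1 and 3 higher, against 123 of 15940 genes. With edgeR, 11 and 9 were higher at an unadjusted p under 0.05, against 6.3% of all genes. The smallest p there were those of Lig1 (0.48 ± 0.11, adjusted p = 0.266), E2f1 (0.70 ± 0.19, adjusted p = 0.301), Aurka (0.73 ± 0.19, adjusted p = 0.276) and the mitotic kinase Plk1 (1.06 ± 0.28, adjusted p = 0.294). With 1 library left out in dKO against Usp21 KO, the lowest count of either list was 0. The highest counts were 17 S phase and 10 mitotic genes, without Usp21 KO replicate 2. Over all genes, the calls ran from 168 of 15037 without dKO replicate 3 to 2192 of 15541 without Usp21 KO replicate 2. The 6 libraries of that comparison alone gave 0 S phase genes.

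The summed mitotic level was 144, 145 and 199 CPM in WT, 228, 508 and 251 CPM in Usp21 KO and 544, 474 and 507 CPM in dKO. Usp21 KO replicate 2 thus lay in the dKO range for the mitotic sum, as it did for H2afx. In WT the S phase sum lay between 985 and 1111 CPM, in Usp21 KO between 1123 and 1428 CPM, and in dKO between 1433 and 1560 CPM. In log2 ratio of group means, dKO against WT stood at 1.65 for the mitotic sum, 0.51 for the S phase sum, 0.35 for the replication-dependent histone sum and 0.10 for the variant sum. In bulk samples like these, more cells in cycle and more histone RNA per cell cannot be told apart.

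**Figure D4:**
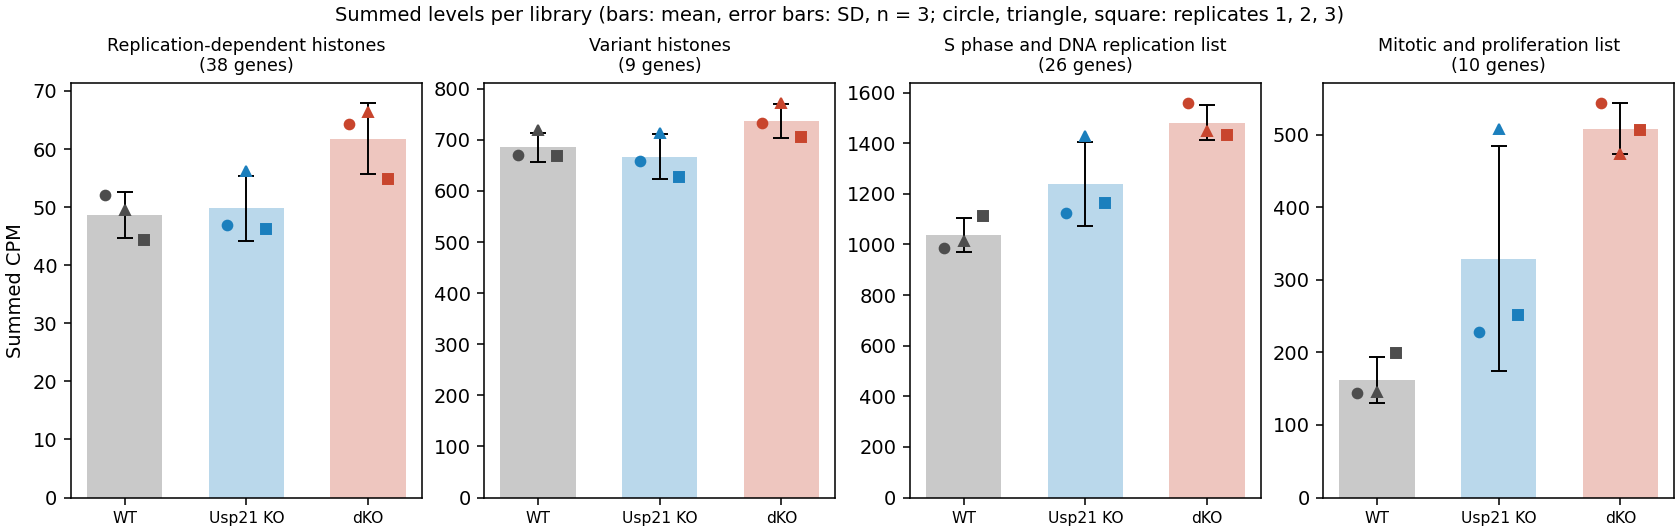
Summed CPM per library for the 38 replication-dependent genes, the 9 variants, 26 S phase genes and 10 mitotic genes; bars are means, error bars are SD (n = 3) and points are replicates 1, 2 and 3. The mitotic sum is 144 to 199 CPM in WT and 474 to 544 CPM in dKO, with Usp21 KO replicate 2 at 508 CPM, and the replication-dependent sum is 44.3 to 52.1 CPM in WT and 54.8 to 66.3 CPM in dKO.

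Markers of other spleen cells also moved with the dKO group. Summed over 11 myeloid markers, the level ran from 78.6 to 248, from 77.1 to 235 and from 336 to 822 CPM in WT, Usp21 KO and dKO, and 3 of the 11 rose in dKO against WT. Over all genes 3.01% rose and 2.77% fell in that comparison, which is the background of the marker counts that follow. CD8 T and NK markers summed to 49.9 to 59.9, 39.4 to 50.1 and 73.2 to 78.4 CPM in the same order, with 2 of 8 risen. Plasma cell markers summed to 155 to 196, 160 to 295 and 247 to 287 CPM, with 0 of 6 past the threshold. All 6 estimates in dKO against WT were above 0, with a median of 1.40. B cell markers summed to 33.5 to 62.8, 37.0 to 55.7 and 61.4 to 69.5 CPM, with 0 of 8 past the threshold. Of their estimates 7 were above 0 and 1 below, with a median of 0.59. Over all genes 48.4% of estimates were above 0. Erythroid markers summed to 77.7 to 78.7, 73.0 to 124 and 93.9 to 135 CPM, with 2 of 7 risen, and germinal centre B cell markers overlapped between the groups at 131 to 164 CPM, with 1 of 5 tested genes risen. The Treg markers summed to 4049 to 4211 CPM in WT and 3311 to 3582 CPM in dKO, with 2 of 7 fallen. No list had a marker at 0 in every library of a group. The part of these cells, and of cells in cycle, in the histone values was not tested.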

How the data were processed

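The authors deposited raw gene counts for 9 libraries, per the file headers; per the submitters' processing notes reads went through cutadapt 1.13, STAR, HTSeq 0.6.1p1 and DESeq2 1.14.1 on mm10. Per the labels' protocols RNA was extracted as total RNA with the RNeasy Micro Kit. RNA selection, read length, strand option and annotation release are not given in the sources used here, and the share of mRNA without a poly(A) tail that was captured depends on them.

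Counts were tested with edgeR 4.0.16 in R 4.3.3 (filterByExpr, TMM, robust quasi-likelihood fit of all 9 libraries, group only), with Benjamini-Hochberg adjustment over 14994 genes and a threshold of 0.05; the standard error is the log2 fold change divided by the square root of F. CPM uses TMM-scaled totals, and per-kb levels use GENCODE M21 exon length. The scripts were tested on simulated counts with known changes. For dKO against WT, 23.3% of 1.5-fold and 76.7% of 2-fold changes were called there, over genes of all levels. A gene that was not called can thus still have changed. Nothing shows separate animals beyond the sample numbering, so p-values measure the spread between these samples. No pair of libraries agreed within sampling noise (lowest chi-square per degree of freedom 5.00). Deviations of same-numbered dKO and WT libraries correlated at 0.124, 0.259 and 0.118, and in Usp21 KO and WT at -0.264, -0.268 and 0.161. Differently numbered libraries were not compared, so these values do not show pairing. The block is given as an alternative where it changes a call.

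The histone genes and the lists were chosen with earlier results of these data known. Genes named in full were all variants, the most abundant replication-dependent genes of each class and, in each related list, the smallest p-values or the called genes; Npat, Hist1h1b, Hist1h2be, Hist1h2bg, Hist1h2bj, Hist4h4 and the genes at the edges of the minimum were named after their values were seen. Alternatives were RLE size factors, library totals, no filter, a stricter filter, DESeq2 1.42.0, limma 3.58.1 voom, the libraries of each comparison alone, a replicate block and leaving out each library.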

Additional observations from a re-analysis of the deposited data

How the results depend on the processing

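No called value changed sign under any alternative run. In dKO against WT, the number of replication-dependent genes past the threshold, 0, became 1 with library totals and 1 with DESeq2 (both times Hist1h2bc). It became 4 with only the 6 libraries of the comparison (Hist1h1c, Hist1h2bc and Hist1h4i higher, Hist3h2a lower). With the replicate block in those 6 libraries it became 5 (also Hist1h2bj), an alternative added after the correlations of same-numbered libraries had been seen. The number of variants, 1, became 4 in the 6 libraries with or without the block (H1f0, H1fx, H2afv and H2afx), 0 with the replicate block in all 9 libraries and 0 to 0 with 1 library left out. Over all genes the calls went from 866 to 606 with the block, to 2315 in the 6 libraries, to 2961 with the block there and to 1488 with DESeq2. With 1 library left out they ran from 193 to 379. Usp21 KO against WT went from 2 to 189 calls with DESeq2 and dKO against Usp21 KO from 735 to 1598, and to 147 in its 6 libraries alone.

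The replication-dependent median in dKO against WT, 0.35, was 0.63 without a filter, 0.63 with DESeq2, 0.73 with limma voom and 0.29 to 0.76 with 1 library left out. The variant median, 0.11, was 0.21 with library totals, which shifted the median of all genes to 0.09, 0.026 with the stricter filter and 0.042 to 0.22 with 1 library left out. In Usp21 KO against WT the replication-dependent median changed sign, from 0.25 to -0.083 without Usp21 KO replicate 2 (range -0.083 to 0.26 with 1 library left out), and the variant median from -0.05 to 0.014 without Usp21 KO replicate 1. In dKO against Usp21 KO, 0 to 1 replication-dependent genes and 0 to 3 variants passed with 1 library left out. Over all genes, 168 of 15037 to 2192 of 15541 passed in those runs. The H2B sum had a log2 ratio of 0.46 in dKO against WT and 0.44 in dKO against Usp21 KO with library totals. Causes of these shifts were not tested, other than that fewer libraries or genes enter some fits. Among single genes, 57 values gained and 74 lost a call and 1783 kept theirs. By the labels, same-numbered libraries of any groups share only a number. The block changed no histone call in dKO against Usp21 KO or in Usp21 KO against WT. In dKO against Usp21 KO it lost E2f1, Prim1, Rfc4 and Hat1. Low counts in most H3 and H4 genes limit what can be seen.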
